A study of Mus musculus with 8 samples.

Results

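The genes described here lie on mouse chromosome 2 on either side of Dlx1 and Dlx2, the adjacent homeobox genes that the study's mutation is named for. They were listed by position, though with earlier results of these data known. Mettl8, Dcaf17 and Map3k20, which lie among them, were not listed and are counted with the further genes below. The members are Tlk1, Cybrd1, Dync1i2, Slc25a12, Hat1 and Metap1d on the side of Dlx1, and Itga6, Pdk1, Rapgef4 and Cdca7 on the side of Dlx2. Of these 10 genes, 9 had a probe set of their own, with 22 probe sets in all among the 45037 of the array without controls. Rapgef4, a guanine nucleotide exchange factor switched on by cyclic AMP, was not analysed here. A filter that dropped the dimmest 30% of probe sets kept 19 of the 22 and 31526 overall. The 3 left out, 1 each of Tlk1, Metap1d and Pdk1, had signals between 1.03 and 26.7.

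RNA came from mouse telencephalon labelled as basal ganglia (BG) or cortex (Ctx), each with the genotype +/- or -/- for Dlx1/2, which makes 4 groups with n = 2 arrays each. All comparisons by genotype are of -/- with +/- tissue, so the reference carries 1 mutant copy, and no wild-type group was used here. The labels used here give no age, strain or design of the alleles, and name no animals behind the 2 arrays of each group, so p-values measure only how these arrays spread, which may be technical. The same labels also name blood and adrenal medulla as a source, which conflicts with the tissue.

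The tissue labels were checked against markers. All 8 of 8 basal ganglia genes, Dlx1 and Dlx2 among them, were higher in BG than in Ctx in +/-. In -/- 5 of these 8 passed as higher in BG and 1 as lower. All 7 cortex genes tested were lower in BG in both genotypes. None of the 4 adrenal medulla genes tested passed between the genotypes in limma, with summed signals of 314 to 453 in all arrays. Between the regions 1 of the 4 passed in +/-, as higher in BG. The 4 sex-linked genes tested passed between the genotypes in both regions, 1 higher and 3 lower in -/-. The sex of the animals and the genotype thus cannot be told apart. In +/- tissue 3 of these 4 also passed as lower in BG than in Ctx, with 0 in -/-. Their signals summed to 456 and 487 in BG +/- and to 698 and 886 in Ctx +/-. Choroid plexus genes summed to between 12067 and 13943 in Ctx +/- and to between 32.8 and 87.2 in Ctx -/-. The same genes summed to 130 and 134 in BG +/- and to 127 and 133 in BG -/-. Of the 5 tested, 3 passed as lower in BG than in Ctx in +/- and 0 in -/-. Red blood cell genes summed to 5837 and 6160 in BG +/- and to 3005 and 3164 in BG -/-. In Ctx they summed to 1879 and 2145 in +/- and to 1330 and 1514 in -/-. Of the 4 tested, 4 passed as higher in BG than in Ctx in +/- and 3 in -/-. The part of these differences in the results below was not tested.

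Dlx1 and Dlx2 themselves checked the labels. Dlx1 read 1232 and 1237 in BG +/-, 3.67 and 15.5 in BG -/-, with 138 and 137 in Ctx +/-, and 2.42 and 1.74 in Ctx -/-. Dlx2 read 358 and 287, 8.56 and 8.68, 55.3 and 55.3, and 12.0 and 6.69 in the same order. Both fell in -/- in both regions, with no overlap between the arrays of the genotypes.

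DLX proteins are homeodomain transcription factors of the ventral forebrain, where they are known for driving the differentiation and migration of GABAergic neurons. The genes beside them are not known as a functional group: they encode chromatin and replication factors, mitochondrial and metabolic proteins, a laminin receptor and a motor subunit. In a mutant line, genes beside the altered locus are of interest because they share its chromosome segment and nearby regulatory DNA.

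Promoters are shown for the 3 genes that were higher in BG than in Ctx past the test described below. The windows run from 250 bases before to 50 after the annotated start (RefSeq, GRCm38.p6), and are written 5' to 3' on the strand of the gene. They are chr2:72475969-72476268 (plus strand) for Cdca7, chr2:71389010-71389309 (plus strand) for Hat1 and chr2:71367706-71368005 (minus strand) for Slc25a12. Capitals mark a match to TTTNNCGC on either strand, a loose form of the E2F site of cell-cycle genes.
Cdca7: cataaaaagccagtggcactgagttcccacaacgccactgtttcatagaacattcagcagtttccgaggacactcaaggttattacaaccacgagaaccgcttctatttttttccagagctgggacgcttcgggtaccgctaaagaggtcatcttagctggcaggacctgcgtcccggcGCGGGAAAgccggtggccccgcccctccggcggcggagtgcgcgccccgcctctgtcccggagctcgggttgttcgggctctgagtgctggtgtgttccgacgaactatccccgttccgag
Hat1: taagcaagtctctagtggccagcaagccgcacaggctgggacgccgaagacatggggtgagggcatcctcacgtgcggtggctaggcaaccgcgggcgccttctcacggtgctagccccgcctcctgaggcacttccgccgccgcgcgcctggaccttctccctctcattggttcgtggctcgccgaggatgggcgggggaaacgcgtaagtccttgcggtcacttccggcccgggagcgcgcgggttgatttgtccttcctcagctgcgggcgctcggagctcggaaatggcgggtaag
Slc25a12: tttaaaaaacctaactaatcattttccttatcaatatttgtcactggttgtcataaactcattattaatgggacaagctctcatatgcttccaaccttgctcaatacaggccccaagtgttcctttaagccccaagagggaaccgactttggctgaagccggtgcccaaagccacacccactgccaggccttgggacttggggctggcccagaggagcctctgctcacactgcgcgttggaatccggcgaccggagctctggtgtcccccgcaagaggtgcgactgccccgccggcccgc
RefSeq windows were found for 9 of the 10 genes, 12 windows in all, with none for Itga6. TTTNNCGC occurred in 2 of the 12 (16.7%), at -71 in Cdca7 and at -67 in 1 of the 2 windows of Dync1i2, against 5.17% of 32851 windows of all genes. The homeodomain core TAATTA, which reads the same on both strands, occurred in 0 of the 12, against 5.29% of all windows. These are matches of letters in short windows and not measured binding sites.

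With each gene represented by its brightest probe set, 1 of the 9 flanking genes passed between the genotypes in BG. That is 11.1%, against 7.82% of all genes. In Ctx 0 passed, against 0.205% of all genes. A single call does not set the flanking genes apart from all genes. In BG, 1 of the 19 member probe sets passed, a fall of Cdca7, which is 5.26%; over all probe sets 9.74% passed, 7.50% higher and 2.23% lower. The test was limma's moderated test on log2(signal + 16), with Benjamini-Hochberg adjustment over all 31526 probe sets and a threshold of 0.05. In Ctx 0 of 19 passed, against 0.225% over all probe sets. At an unadjusted p under 0.05 the members numbered 2 in BG and 3 in Ctx, against 28.2% and 9.67% of all. Their median log2 difference was 0.09 in BG and 0.06 in Ctx, against 0.01 and -0.01 over all probe sets. Single values ran from -0.70 to 0.39 in BG and from -0.45 to 0.47 in Ctx. The 95% interval lay within a 2-fold change in either direction for 17 of 19 in BG and 19 of 19 in Ctx, against 73.3% and 82.2% of all probe sets. Fewer cells of a type and less RNA per cell cannot be told apart in these tissue samples.

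**Figure D1:**
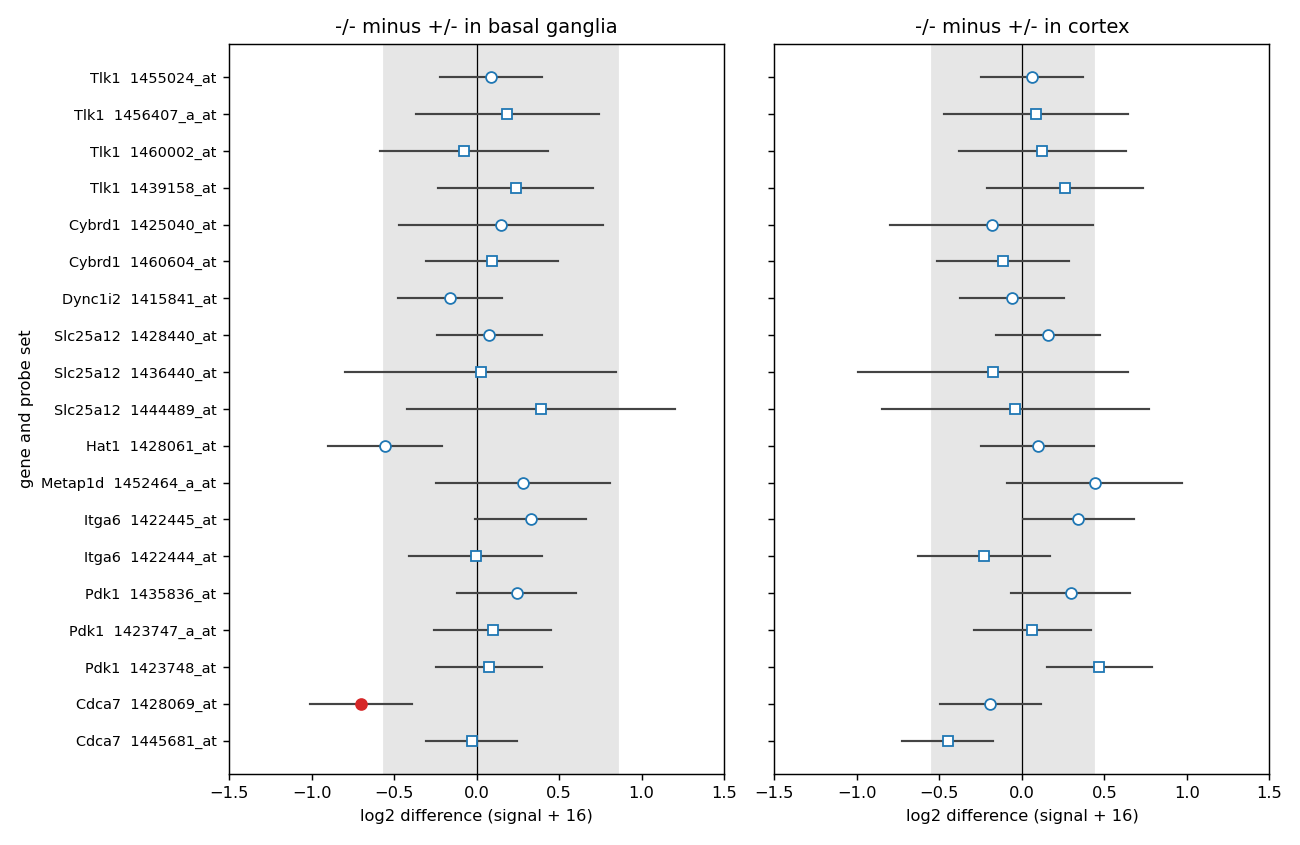
Log2 difference of -/- from +/- for the 19 tested probe sets of the flanking genes in BG and in Ctx, with 95% intervals from the limma fit; circles are the brightest probe set of a gene, squares the others, and the grey band spans the 5th to 95th percentile of all probe sets. Cdca7 1428069_at in BG, at -0.70 (filled), was the 1 value past the threshold.

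Among the chromatin and replication genes, Cdca7 was the one that passed. Its product is a zinc finger protein that works with the chromatin remodeller HELLS and is a known target of MYC and E2F. The brighter probe set (1428069_at) read 826 and 727 in BG +/- and 453 and 488 in BG -/-. In Ctx it read 399 and 355 in +/- and 328 and 327 in -/-. Both BG +/- arrays were the highest of all 8, and the genotypes did not overlap in either region. In BG it fell by 0.70 ± 0.13 on the log2 scale (SE, n = 2 arrays per group; 1.62-fold lower; adjusted p = 0.0241 in limma), and the Ctx difference was -0.19 ± 0.13 (adjusted p = 0.681). The adjusted p in BG ran from 0.000736 to 0.132 over the alternatives. The call was lost when any 1 of the 4 BG arrays or 2 Ctx -/- arrays was left out, with estimates of -0.61 (adjusted p = 0.115) and -0.79 (0.0621) without BG +/- replicates 2 and 3, -0.65 (0.132) and -0.75 (0.104) without BG -/- replicates 2 and 3, and -0.70 (0.0544 each) without either Ctx -/- array. It was also lost when the BG groups were fitted alone (adjusted p = 0.0649).

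The dimmer Cdca7 probe set (1445681_at) gave another pattern. It read 163 and 149 in BG +/-, 150 and 154 in BG -/-, with 97.6 and 91.5 in Ctx +/-, and 64.8 and 64.9 in Ctx -/-. The genotypes overlapped in BG, with a difference of -0.03 ± 0.12 (95% interval -0.30 to 0.24; adjusted p = 0.893), and did not overlap in Ctx, with -0.45 ± 0.12 (adjusted p = 0.302). The mean of both probe sets gave -0.37 ± 0.10 in BG (adjusted p = 0.0736). The BG call of Cdca7 was thus made with 1 of its 2 probe sets, and their mean, though below 0, did not pass.

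Hat1 encodes the acetyltransferase that marks newly made histone H4 before it is laid down on DNA. Its single probe set read 823 and 985 in BG +/-, 630 and 587 in BG -/-, with 442 and 399 in Ctx +/-, and 423 and 479 in Ctx -/-. As with Cdca7, the 2 BG +/- arrays were the highest. The genotypes of Hat1 were apart in BG and overlapped in Ctx. The BG difference was -0.55 ± 0.14 (95% interval -0.90 to -0.21) and did not pass after adjustment (adjusted p = 0.0597; 0.00463 to 0.225 over the alternatives). It passed with an offset of 64 (adjusted p = 0.0174), with a variance trend (0.00463) and in a fit of gene means over probe sets (0.0468). In Ctx it was 0.10 ± 0.14 (adjusted p = 0.874). The difference between the regions was -0.65 ± 0.20 (adjusted p = 0.186) and for Cdca7 1428069_at -0.51 ± 0.18 (adjusted p = 0.230), neither of which passed.

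The cell-cycle genes that passed in the same tissue went in both directions. Of 14 tested, 1 rose past the test in BG -/- and 2 fell, while 7.82% of all genes passed. Top2a, the DNA-untangling topoisomerase, rose by 0.64 ± 0.12. Cdk1, the mitotic kinase, differed by -0.87 ± 0.14, and the replication licensing factor Mcm5 by -0.56 ± 0.13. Most of the 14 lay below 0 in BG, with Mki67, Top2a and Tyms above 0. The median of the 14 was -0.26 in BG and 0.03 in Ctx, where none passed. The summed signal of the list was 13999 and 14813 in BG +/- and 11820 and 12350 in BG -/-, and 11924 to 12945 in Ctx of either genotype. The part of these genes in the values of Cdca7 and Hat1 was not tested.

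Tlk1 encodes a tousled-like kinase that acts on histone chaperones during DNA replication. Its brightest probe set (1455024_at) read 437 and 385 in BG +/-, 432 and 442 in BG -/-, with 412 and 466 in Ctx +/-, and 443 and 473 in Ctx -/-. The genotypes overlapped within each region, with differences of 0.09 ± 0.13 in BG (95% interval -0.22 to 0.40) and 0.06 ± 0.13 in Ctx (-0.25 to 0.37); centring the arrays on their medians turned the BG value to -0.01. The 3 other Tlk1 probe sets tested had signals of 32.5 to 135 and BG differences of -0.08 to 0.24.

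**Figure D2:**
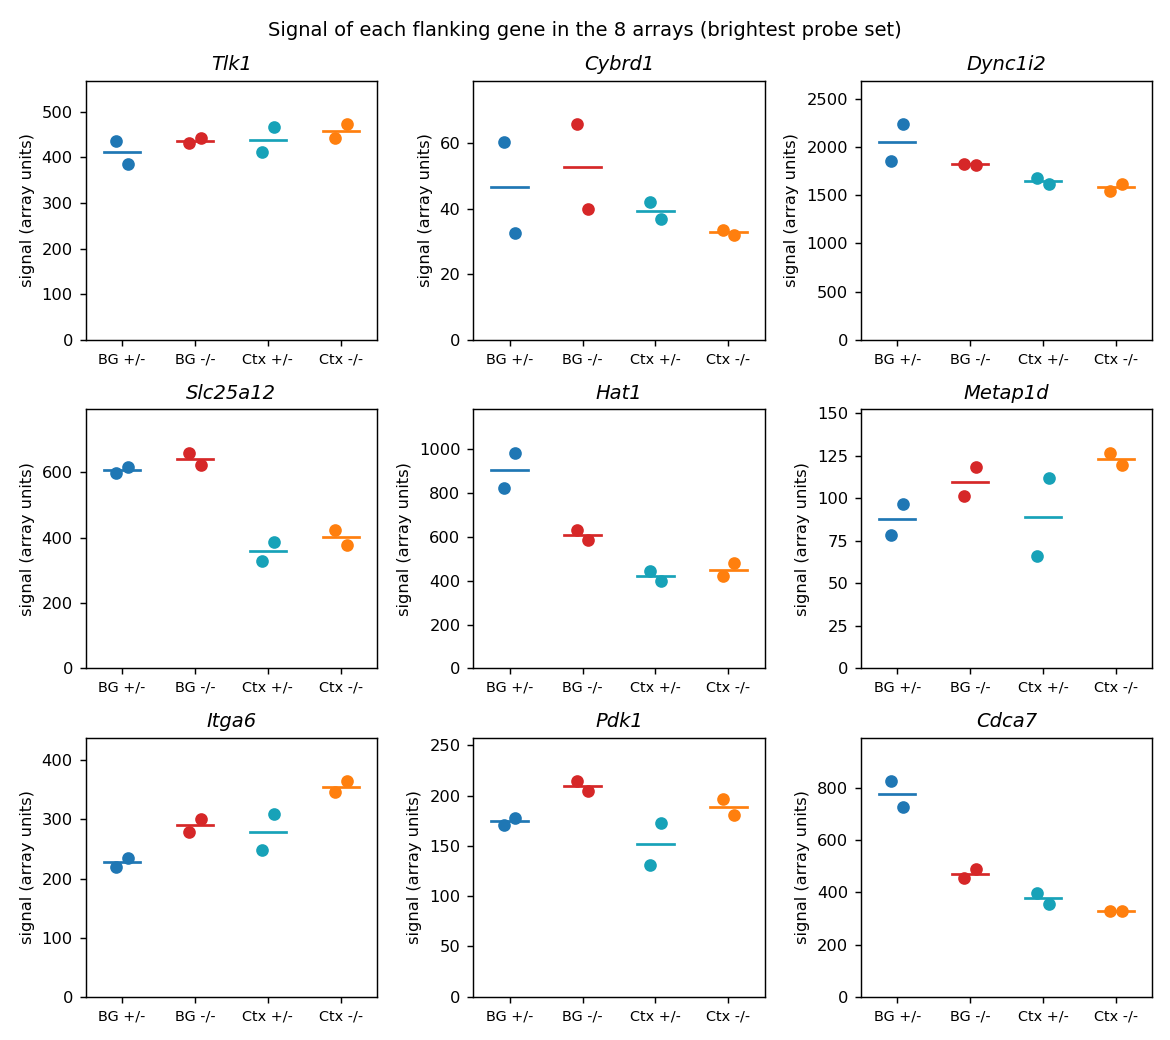
Signal in array units (linear axis from 0) of the brightest probe set of each of 9 flanking genes in all 8 arrays, 1 point per array, with a line at the mean of each group of region and genotype. The BG +/- arrays were the highest for Cdca7 (826 and 727) and Hat1 (823 and 985), while every BG array of Slc25a12 was above every Ctx array.

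Among the mitochondrial and metabolic genes, none passed between the genotypes. Slc25a12, the aspartate-glutamate carrier that feeds the malate-aspartate shuttle, read 597 and 617 in BG +/-, 660 and 623 in BG -/-, with 330 and 387 in Ctx +/-, and 424 and 378 in Ctx -/- with its brightest probe set (1428440_at). Every BG array was above every Ctx array, while the genotype differences were 0.08 ± 0.13 in BG and 0.16 ± 0.13 in Ctx (adjusted p = 0.748 and 0.747). Its 2 dimmer probe sets varied by up to 2.02-fold and 1.86-fold between arrays of 1 group and passed in no comparison.

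Metap1d, a mitochondrial methionine aminopeptidase, and Pdk1, the kinase that shuts off pyruvate dehydrogenase, lie close to Dlx1 and Dlx2. Metap1d read 78.4 and 96.7 in BG +/-, 101 and 118 in BG -/-, with 66.3 and 112 in Ctx +/-, and 127 and 120 in Ctx -/-. Pdk1 read 171 and 178, 214 and 204, 131 and 173, and 196 and 181 with its brightest probe set (1435836_at) in the same order. Both -/- arrays were above both +/- arrays for each gene in each region. The differences were 0.28 ± 0.22 in BG and 0.44 ± 0.22 in Ctx for Metap1d, and 0.24 ± 0.15 and 0.30 ± 0.15 for Pdk1, and none passed (adjusted p from 0.346 to 0.589). Another Pdk1 probe set, 1423748_at, read 74.5 and 73.1 in Ctx +/- and 106 and 110 in Ctx -/-, a difference of 0.47 ± 0.13 (adjusted p = 0.336), with 0.07 ± 0.13 in BG. In 1423747_a_at the genotypes overlapped in both regions, with 0.10 ± 0.15 in BG and 0.06 ± 0.15 in Ctx.

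Cybrd1, a ferric reductase best known from iron uptake in the gut, was dim. Its 2 probe sets had signals between 21.7 and 65.9, and the brighter (1425040_at) read 60.5 and 32.7 in BG +/-, 65.9 and 39.8 in BG -/-, with 42.0 and 36.8 in Ctx +/-, and 33.7 and 31.9 in Ctx -/-. In BG the replicates of a genotype lay further apart than the genotypes, and the differences of 0.15 ± 0.26 and -0.18 ± 0.26 did not pass.

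The adhesion and transport genes also gave no call between genotypes. Itga6 encodes the alpha 6 integrin chain, part of a laminin receptor found on radial glia and endothelium. With its brighter probe set (1422445_at) it read 220 and 235 in BG +/-, 278 and 301 in BG -/-, with 248 and 309 in Ctx +/-, and 346 and 365 in Ctx -/-. As with Metap1d and Pdk1, both -/- arrays were the higher in each region. The differences were 0.33 ± 0.14 in BG (95% interval -0.01 to 0.67; adjusted p = 0.187) and 0.34 ± 0.14 in Ctx (0.01 to 0.68; adjusted p = 0.510). The second Itga6 probe set (1422444_at) read 111 and 121, 130 and 102, 186 and 230, and 187 and 162 in the same order, with differences of -0.01 ± 0.17 and -0.23 ± 0.17, so the 2 probe sets differed in pattern. Dync1i2, an intermediate chain of the dynein motor, was the brightest of the genes, at 1859 and 2237 in BG +/-, 1827 and 1814 in BG -/-, with 1682 and 1613 in Ctx +/-, and 1543 and 1618 in Ctx -/-. It differed by -0.16 ± 0.13 and -0.06 ± 0.13, and did not pass.

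In protein-coding gene order, Metap1d and then Hat1 come first on the Dlx1 side, and Itga6 and then Pdk1 on the Dlx2 side. Hat1 was lower in BG -/- and overlapped in Ctx, as given above. For Metap1d, Itga6 and Pdk1, named here because of this pattern, 1 probe set each had both -/- arrays above both +/- arrays in each region, 3 of 19 or 15.8%, against 8.25% of all probe sets. Cdca7 1428069_at was the 1 member probe set lower in both regions, against 7.67% of all. The comparisons in BG and in Ctx share no arrays, but the labels name no animals, so the regions may share animals. Sex and genotype cannot be told apart in either region. In the 16 alternatives of the probe set fit the estimates for these 3 probe sets ran from 0.14 to 0.41 in BG. In Ctx the range was 0.11 to 0.76. None passed in those that left out no single array. As the probe sets were picked for arrays that did not overlap, most alternatives could not turn their sign. Only array-median centring and quantile normalization could have done so. The mean over all probe sets of a gene, including those dropped by the filter, gave -0.08 for Pdk1 in BG. The 3 tested Pdk1 probe sets were all above 0 in BG, at 0.24, 0.10 and 0.07. The mean lay below 0 only with the probe set left out as dim, with signals of 1.03 to 25.1. For Itga6 in Ctx the mean was 0.06, from 0.34 and -0.23. The pattern did not hold for every tested probe set, as the genotypes overlapped in both regions in another probe set of Pdk1 and of Itga6. With single regions, the genotypes did not overlap for 9 of 19 in BG (47.4%, against 60.0% of all), 6 with -/- higher (31.3% of all) and 3 with -/- lower (28.6% of all). In Ctx they did not overlap for 7 of 19 (36.8%, against 39.4% of all), 4 higher (18.6% of all) and 3 lower (20.9% of all). A 2 against 2 exact permutation test cannot give a two-sided p below 0.333.

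More of these probe sets passed between the regions than between the genotypes. In +/- tissue 5 of 19 member probe sets passed between BG and Ctx, which is 26.3%, against 23.8% of all probe sets (11.1% higher and 12.8% lower). Hat1 was 2.10-fold higher in BG (1.07 ± 0.14, adjusted p = 0.00399 in limma), and Cdca7 was 2.01-fold higher with 1428069_at (1.01 ± 0.13, adjusted p = 0.00335) and 1.55-fold higher with 1445681_at (0.64 ± 0.12, adjusted p = 0.0106). Slc25a12 1428440_at was 1.67-fold higher in BG (0.74 ± 0.13, adjusted p = 0.0104), and Itga6 1422444_at was 1.69-fold lower (-0.76 ± 0.17, adjusted p = 0.0210). The calls of Hat1 and of Cdca7 1428069_at held in all 16 alternatives, while those of Cdca7 1445681_at and Slc25a12 1428440_at were lost in 2 each and that of Itga6 1422444_at in 4.

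In -/- tissue 3 of 19 passed, 15.8% against 17.2% of all probe sets (10.7% higher and 6.59% lower), all 3 of them higher in BG. Slc25a12 1428440_at was 1.58-fold higher (0.66 ± 0.13, adjusted p = 0.0199). This call was lost in 5 of 16 alternatives: without any 1 of the 4 -/- arrays (0.58 to 0.74, adjusted p from 0.0655 to 0.108) and with array-median centring (0.38, adjusted p = 0.149). Cdca7 was 1.42-fold higher with 1428069_at (0.50 ± 0.13, adjusted p = 0.0423) and 2.08-fold higher with 1445681_at (1.06 ± 0.12, adjusted p = 0.00235). The call for Cdca7 1428069_at was lost in 10 of 16 alternatives, and array-median centring gave 0.22 (adjusted p = 0.289). Hat1 was 0.42 ± 0.14 higher in BG and did not pass (adjusted p = 0.0902), nor did Itga6 1422444_at at -0.53 ± 0.17 (adjusted p = 0.0740). Whether these regional differences themselves changed with genotype is the same test as the difference of genotype effects, in which 0 of 19 passed in limma, 3 of 19 at an unadjusted p under 0.05, against 0.574% and 17.7% of all probe sets.

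**Figure D3:**
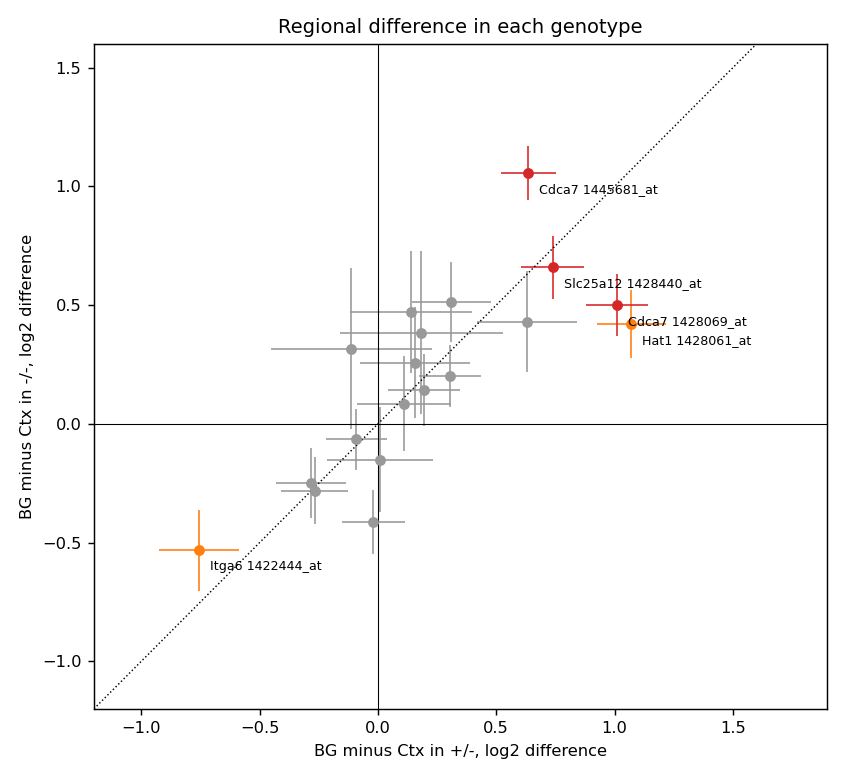
Log2 difference of BG from Ctx in +/- tissue (horizontal) against that in -/- tissue (vertical) for the 19 tested probe sets, with standard errors as bars and equality as the dotted line; red passed in both genotypes, orange in +/- alone. Hat1 and Cdca7 1428069_at lie below the dotted line and Cdca7 1445681_at above it.

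The genes whose array profile was most like that of Cdca7 1428069_at were Timm17b, Dennd6b and Med6. Likeness was the root mean square difference of the centred log2 profiles over the 8 arrays, which was 0.06, 0.09 and 0.09 against a range of 1.29 for Cdca7. Timm17b, a subunit of the mitochondrial import channel, read 904 and 907 in BG +/-, 553 and 581 in BG -/-, with 467 and 394 in Ctx +/-, and 398 and 405 in Ctx -/-. Since these genes were picked for this likeness, their profile is a description.

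Further genes of the interval were counted from a list of 20, of which 18 had a tested probe set, 35 in all. In BG 7 of the 35 passed (20.0%, against 9.74% of all), from 3 genes, and 5 of the 7 were of Atf2. With each gene represented by its brightest probe set, 2 of 18 passed (11.1%, against 7.82% of all genes). All 5 probe sets of Atf2, a bZIP factor that binds cyclic AMP response elements, rose, by 0.66 to 1.22. The brightest (1426583_at) read 726 and 744 in BG +/-, 1275 and 1305 in BG -/-, with 1253 and 1140 in Ctx +/-, and 1309 and 1210 in Ctx -/-. BG +/- was the lowest group here, with the other 3 groups close together, and the BG rise was 0.80 ± 0.12 (adjusted p = 0.0134). Lnpk, which shapes junctions of the endoplasmic reticulum, rose by 1.25 ± 0.14 with 1456859_at (adjusted p = 0.00728), while 1453035_at gave 0.38 (adjusted p = 0.141). Sp5, a zinc finger target of Wnt signalling, fell by 0.87 ± 0.16 (adjusted p = 0.0248), with signals of 10.5 and 4.94 in BG -/-, both below the level of 16.3 at which the filter acted, and none above 29.0 in any array. At such signals the offset sets the size, which was -1.76 with an offset of 1 and -0.34 with an offset of 64. In the alternatives these calls held in 8 to 14 of 16 for the Atf2 probe sets, 14 of 16 for Lnpk and 10 of 16 for Sp5.

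In Ctx 1 of the 35 passed (2.86%, against 0.225% of all). Gad1, an enzyme of GABA synthesis that lies beyond Tlk1, read 350 and 338 in Ctx +/- and 10.1 and 20.3 in Ctx -/-, so that it fell by 3.55 ± 0.18 (adjusted p = 0.000833). In BG it read 1907 and 1720 in +/- and 1427 and 1298 in -/-, a difference of -0.41 that did not pass (adjusted p = 0.191). The dimmer Gad1 probe set (1416562_at) read 52.8 and 73.1 in Ctx +/- and 12.7 and 19.9 in Ctx -/-, a difference of -1.29 ± 0.20 that did not pass (adjusted p = 0.0958), so the call rests on 1 of 2 probe sets. Gad1 is the nearest gene on the Dlx1 side with a probe set that passed between genotypes in either region.

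Along the chromosome, calls in BG were not densest beside the locus. Genes were ranked by RefSeq order from Dlx1 or Dlx2 among those tested, each by its brightest probe set, against 7.82% called over all genes. Of the 20 within rank 10 on either side, 1 passed (5%, Cdca7). At ranks 11 to 25 it was 3 of 30 (10%: Ubr3, Sp5 and Atf2), at ranks 26 to 50 12 of 50 (24%, 10 higher and 2 lower), and beyond rank 50 76 of 937 (8.11%). In Ctx the counts were 1 of 20 (Gad1), 0 of 30, 0 of 50 and 5 of 937 (0.534%), against 0.205% over all genes. These counts were compared by size only.

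**Figure D4:**
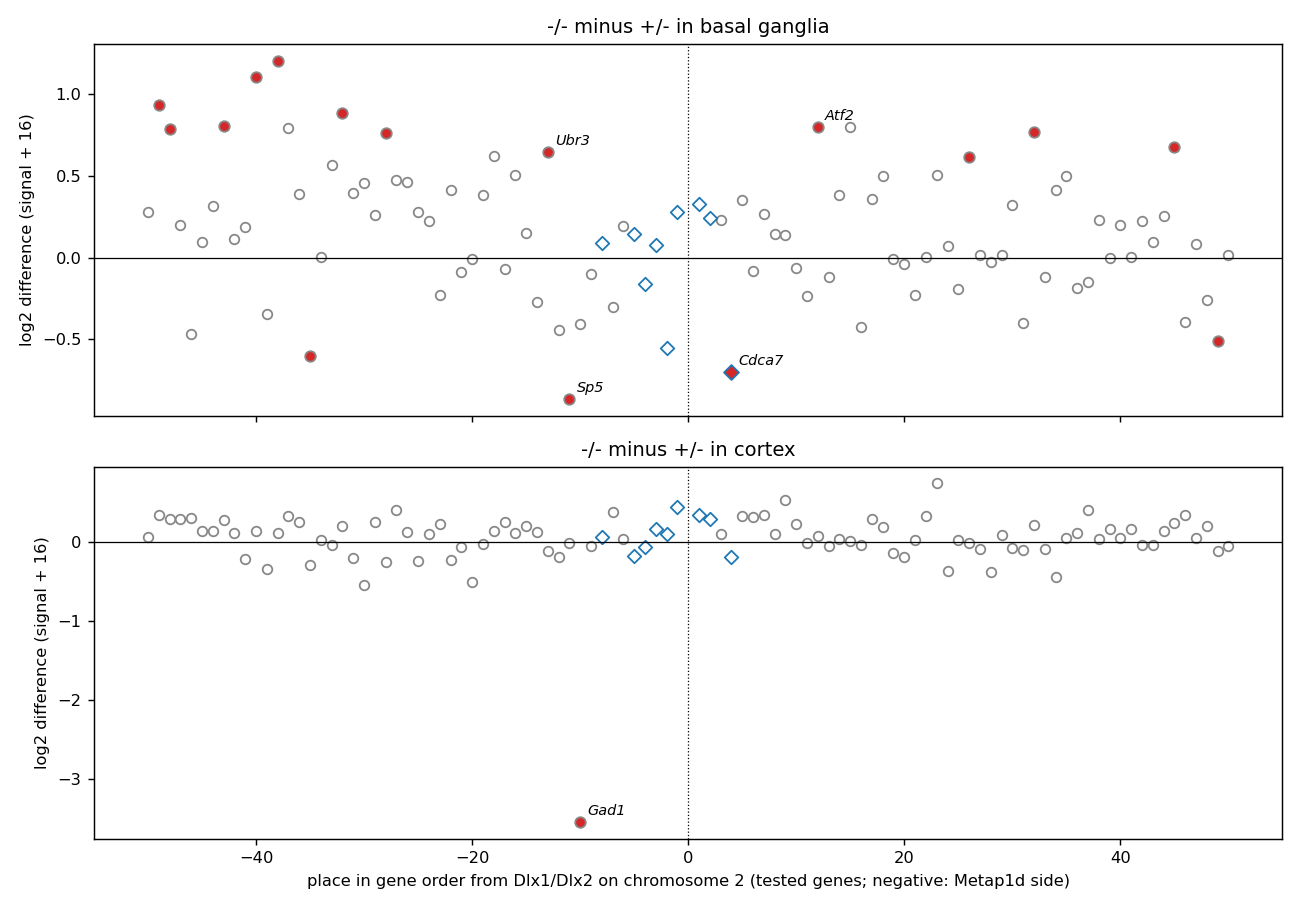
Log2 difference of -/- from +/- for genes of chromosome 2 by place in gene order from Dlx1 and Dlx2, in BG and in Ctx, each by its brightest probe set; diamonds are the flanking genes described here and filled points passed the test. Within rank 10 on either side 1 of 20 genes passed in each region, Cdca7 in BG and Gad1 in Ctx.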

How the data were processed

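RNA of 8 samples was read on oligonucleotide arrays, 2 per group. The deposited values are linear intensity values, 1 for each of 45101 probe sets; the software is not given in the sources used here. The 2% trimmed mean was 150.0008 to 150.0009 in every array, the mark of a common scaling already applied in the deposited values. The median signal was 38.0 to 51.6, and no detection calls were used. After 64 controls were left out, 34945 probe sets had 1 gene symbol, 932 several and 9160 none in the platform annotation.

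Signals were analysed as log2(signal + 16), which understates differences of dim genes, without the lowest 30% by mean. limma 3.58.1 (R 4.3.3; lmFit, eBayes) fitted 4 group means with 4 residual and 2.76 prior degrees of freedom; 5 comparisons were each adjusted by Benjamini-Hochberg over 31526 probe sets. The fit was also run on simulated data with independent normal noise and added changes, which does not test how these arrays spread. All members are named; a gene is represented by its probe set with the highest mean log2. Gene order and promoters are from RefSeq (GRCm38.p6). The members, the lists of further genes and of markers, and the tests were chosen with earlier results of these data known. Alternatives were offsets of 1 and 64, no filter, array-median centring, quantile normalization, a variance trend, the compared groups alone, a replicate block, the mean of a gene's probe sets, and leaving out each array.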

Additional observations from a re-analysis of the deposited data

Results flagged for a closer look

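Gad1 1416561_at is singled out because its genotype difference depended on the region. The log2 difference of -/- from +/- was -0.41 in BG and -3.55 in Ctx. These values differed by 3.14 ± 0.25 (adjusted p = 0.0211 in limma). The call for the difference was lost in 9 of 15 alternatives. The other Gad1 probe set, 1416562_at, gave 1.09 ± 0.28, which did not pass (adjusted p = 0.127). In Ctx -/- the signals were 10.1 and 20.3, around the level of the filter.

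Atf2 1437777_at, the dimmest of 5 Atf2 probe sets, had signals in BG of 35.3 and 46.0 (+/-) and 92.2 and 95.6 (-/-), and in Ctx of 45.6 and 52.3 (+/-) and 30.9 and 33.0 (-/-). Its genotype difference was higher in BG than in Ctx by 1.40 ± 0.20 (adjusted p = 0.0471 in limma), a call kept in 2 of 15 alternatives. The other 4 Atf2 probe sets gave 0.50 to 1.06, and none passed (adjusted p from 0.0791 to 0.202).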

How the results depend on the processing

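Of the 19 member probe sets, 1 passed between genotypes in BG with the settings used. This became 2 with an offset of 64 and 2 with a variance trend, Hat1 being added, and 0 when the compared groups were fitted alone; leaving out arrays gave 0 to 1. In Ctx the count was 0 in all 16 alternatives. The difference between regions went from 0 to 1 with a variance trend (Hat1). BG against Ctx in +/- went from 5 to 2 with the compared groups alone and to 3 to 6 when arrays were left out. In -/- it went from 3 to 5 with an offset of 64 and to 5 with a variance trend, and to 1 to 3 without single arrays; with the mean of all probe sets of a gene, it went from 2 genes to 1, and the 1 gene passing in the BG genotype comparison was Hat1 in place of Cdca7. Over all probe sets the BG count ran from 113 to 5889, the Ctx count from 19 to 212 and the difference between regions from 3 to 1816. Array-median centring moved the median of all BG differences from 0.01 to -0.09 and the share of BG calls that were higher from 77.1% to 68.5%.

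Arrays with the same replicate number in their titles showed no shared deviation (6 correlations of deviations from -0.03 to 0.02). This cannot show whether such arrays share animals, which the labels do not name. With a replicate block the member counts were 1 in BG, 0 in Ctx, 0 for the difference, 5 in +/- and 2 in -/-, and those over all probe sets 2002 in BG, 36 in Ctx and 4 for the difference.

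Signs turned for small differences, none of which passed. Array-median centring gave, in BG, Tlk1 1455024_at -0.011, Cybrd1 1460604_at -0.0082, Slc25a12 1428440_at -0.021, Slc25a12 1436440_at -0.075, Pdk1 1423747_a_at -0.0025 and Pdk1 1423748_at -0.025, and, in Ctx, Dync1i2 0.0049 and Slc25a12 1444489_at 0.023. Quantile normalization gave, in BG, Cybrd1 1460604_at -0.00088, Slc25a12 1436440_at -0.090 and Pdk1 1423748_at -0.053, and, in Ctx, Slc25a12 1444489_at 0.020. Without single arrays the BG values ran from -0.17 to 0.012 for Tlk1 1460002_at, -0.18 to 0.47 for Cybrd1 1425040_at, -0.39 to 0.44 for Slc25a12 1436440_at, -0.16 to 0.15 for Itga6 1422444_at, -0.045 to 0.24 for Pdk1 1423747_a_at, -0.070 to 0.22 for Pdk1 1423748_at and -0.092 to 0.031 for Cdca7 1445681_at. In Ctx they ran from -0.025 to 0.15 for Tlk1 1455024_at, -0.20 to 0.37 for 1456407_a_at, -0.14 to 0.38 for 1460002_at, -0.29 to 0.064 for Cybrd1 1460604_at, -0.50 to 0.14 for Slc25a12 1436440_at, -0.33 to 0.25 for 1444489_at and -0.060 to 0.19 for Pdk1 1423747_a_at. The cause of these shifts was not tested. With 2 arrays a group, precision is limited by their number.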

Other observations

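At ranks 26 to 50 of gene order from Dlx1 or Dlx2, 12 of 50 genes passed in BG, 10 higher and 2 lower, against 7.82% of all genes. This count was noticed after the values were seen. Among them were Scn2a and Scn1a, which encode pore-forming subunits of neuronal voltage-gated sodium channels, at 0.89 ± 0.13 and 0.76 ± 0.14 on the log2 scale (adjusted p = 0.0125 and 0.0253 in limma). Slc4a10, a bicarbonate transporter of neurons, rose by 1.11 ± 0.18 (adjusted p = 0.0166), and Baz2b, a bromodomain protein, by 0.93 ± 0.12 (adjusted p = 0.00945). None of the 50 passed in Ctx.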
